A study of Mus musculus with 18 samples.

Results

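The 9 germline genes described here are Dazl, Ddx4, Mael, Mov10l1, Sycp1, Sycp3, Brdt, Stk31 and Tex101. They were chosen by name, with earlier results of these data known, and all 9 were found among the 26794 RefSeq genes with a start site, of which 17274 code for protein. For each gene, histone marks were read in a start-site window reaching 1 kb to either side of the transcription start and in the gene body from 1 kb after the start to the gene end. The genes are known as targets of DNA methylation, but DNA methylation and transcripts were not analysed here, so that part of their description could not be checked and they are called germline genes throughout.

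Germline genes are transcribed in germ cells and kept silent in other cells. At many of their CpG-rich promoters silencing rests on DNA methylation in differentiated cells, while in embryonic stem cells grown in 2i/LIF, where DNA methylation is low, repressive complexes such as PRC1.6, which holds the E-box-binding partners MGA and MAX and the factor E2F6, also act on them. H3K27me3 is the mark laid down by EZH2, the catalytic subunit of PRC2, and is typical of silent CpG-rich promoters. H3K36me3 is typical of transcribed gene bodies, and H3K36me2 of broad regions within and between genes.

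The cells were E14 mouse embryonic stem cells without a stated genetic change, all grown in 2i/LIF medium with light, medium or heavy amino acids. Chromatin from untreated cells was precipitated for H3K27me1, H3K27me2, H3K27me3, H3K36me2 or H3K36me3 without a spike-in (10 libraries). In the other 8 libraries, cells had received 10 µM of the EZH2 inhibitor EPZ-6438 or the same volume of its solvent DMSO for 7 days, and H3K27me3 or H3K36me2 was precipitated with Drosophila S2 chromatin added at 0.05% of the total. Each of the 9 groups held 2 libraries. The labels do not say whether the 2 came from separate cultures, so p-values measure the spread between these libraries only. With 2 against 2, an exact permutation test of a single value cannot go below p = 0.333.

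Estimated mouse reads (in M, counts of 1000000 reads) numbered 17.3 to 51.0 M without a spike-in and 16.3 to 84.4 M with one, except for H3K27me3 after the inhibitor, with 0.749 and 1.34 M. No input library was analysed. The H3K36me3 level in the bodies of 8 of 8 pluripotency genes lay above the library mean, with a median of 7.20 times it, against 0.452 over 4 fibroblast genes. By the mean of 2 libraries, 70.9% of protein-coding bodies lay above the library mean. Of the fibroblast genes Twist1 did too, at 1.10. Of 2 primitive endoderm genes, Foxa2 lay at 2.17 and Dab2 at 0.422. In bulk chromatin, fewer cells carrying a mark and less of it per cell cannot be told apart.

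The promoters are shown first because they held more CpG than most promoters, and because 1 motif was frequent among them. In the 250 bases before the start (RefSeq, GRCm38.p6), the 10 promoter entries of the 9 genes (Stk31 has 2) held 12 to 31 CpG dinucleotides. Their median was 18.5, against 6 over 32851 promoters of the same length. The 32851 promoters include those of genes that do not code for protein. Of 17274 protein-coding genes, 7887 had at least 12 CpG and 9387 fewer. Among the 32851 promoters, the 10 entries ranged from percentile 66.5 of CpG number at Sycp3 to 94.8 at Ddx4. Median GC content was 63.8% against 52.4%, and the median ratio of observed to expected CpG was 0.749 against 0.374. The E-box CACGTG, which reads the same on both strands, occurred in 8 of the 10 entries, those of Ddx4, Sycp1, Sycp3, Mael, Mov10l1, Brdt and Stk31, and in 6.02% of all promoters. The E-box itself holds a CpG. Among 7887 protein-coding genes with at least 12 CpG it occurred in 10.08%, and among those with fewer in 3.92%. The 2 Stk31 entries overlap and hold the same E-box, 55 and 120 bases upstream of their starts. The E2F-like motif GGCGGGA, searched on both strands and overlapping no E-box match in these genes, occurred in 2 entries, Ddx4 and Mael, and in 9.75% of all. Both motifs together were found in 0.87% of all promoters. The annotated extents of Ddx4, Mov10l1, Brdt and Stk31 begin upstream of the start used, and both Ddx4 matches and the Brdt match lie inside the gene. A match is a description of the letters and not a measured binding site.

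Of the genes with an E-box, the highest and a low H3K27me3 level at the start belong to Sycp1 and Sycp3, and Mael holds both motifs. They are printed from 250 bases upstream to the base before the start, in the direction of transcription, at chr3:102936101-102936350 (minus strand), chr10:88459337-88459586 (plus strand) and chr1:166238745-166238994 (minus strand). Capitals mark the E-box, which lies 94 bases upstream in Sycp1, 64 and 43 in Sycp3 and 223 in Mael, and the E2F-like motif on the opposite strand, 143 bases upstream in Mael.

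Sycp1: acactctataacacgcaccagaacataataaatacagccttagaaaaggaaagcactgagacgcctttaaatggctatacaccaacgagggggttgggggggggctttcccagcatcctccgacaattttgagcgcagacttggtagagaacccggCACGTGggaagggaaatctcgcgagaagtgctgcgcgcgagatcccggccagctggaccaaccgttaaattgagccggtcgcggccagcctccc
Sycp3: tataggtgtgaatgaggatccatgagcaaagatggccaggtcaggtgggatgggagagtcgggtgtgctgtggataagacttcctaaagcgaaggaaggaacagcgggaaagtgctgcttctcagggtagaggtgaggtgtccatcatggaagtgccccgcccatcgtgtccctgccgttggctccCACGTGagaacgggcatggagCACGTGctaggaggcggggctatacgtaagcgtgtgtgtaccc
Mael: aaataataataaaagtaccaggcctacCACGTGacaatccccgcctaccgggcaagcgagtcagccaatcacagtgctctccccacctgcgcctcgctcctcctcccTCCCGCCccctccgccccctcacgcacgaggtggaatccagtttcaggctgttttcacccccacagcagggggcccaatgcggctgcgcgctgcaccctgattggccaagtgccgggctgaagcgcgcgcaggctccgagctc

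Dazl and Tex101 hold neither motif in these bases. They are printed at chr17:50293621-50293870 (minus strand) and chr7:24672051-24672300 (minus strand) with capitals marking the CpG dinucleotides, 20 in Dazl and 14 in Tex101.

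Dazl: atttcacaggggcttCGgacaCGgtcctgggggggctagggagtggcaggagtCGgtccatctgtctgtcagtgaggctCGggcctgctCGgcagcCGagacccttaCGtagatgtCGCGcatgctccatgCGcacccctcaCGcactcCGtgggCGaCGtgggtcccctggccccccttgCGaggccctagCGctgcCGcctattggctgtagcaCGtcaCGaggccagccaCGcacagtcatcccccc
Tex101: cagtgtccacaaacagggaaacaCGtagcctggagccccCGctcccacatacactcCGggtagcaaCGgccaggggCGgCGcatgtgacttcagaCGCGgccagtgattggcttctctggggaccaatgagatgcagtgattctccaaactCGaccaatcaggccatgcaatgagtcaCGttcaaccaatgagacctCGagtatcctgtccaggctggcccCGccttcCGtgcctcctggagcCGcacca

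In untreated cells, H3K27me3 stood above the library mean at the start of all 9 genes in both libraries. By the mean of 2 libraries, so did 38.4% of protein-coding starts. Levels are given as ratios to the mean over all windows of the same library, for replicates 1 and 2. The median over the 9 genes was 6.51, against 0.477 over 17274 protein-coding genes, 14.1 over 10 classical Polycomb target genes and 0.0959 over 9 housekeeping genes. All 9 starts lay in an H3K27me3 peak of the authors' list, as did 34.8% of protein-coding starts. With peaks above the median score of the list only, 7 of 9 did, against 29.1%, and those left out were Sycp3 and Stk31. A high CpG number did not go with this mark over all genes: of the 7887 protein-coding genes with at least 12 CpG, the lowest number among the 9 genes, 32.3% lay in a peak and the median level was 0.28. Of the 1163 protein-coding genes with an E-box, whatever their CpG number, 35.4% lay in a peak. The limit of 12 CpG was set after the values were seen.

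Dazl encodes an RNA-binding protein that controls translation in germ cells, and Ddx4 is the mouse Vasa RNA helicase. At the Dazl start (chromosome 17, position 50293620) H3K27me3 was 6.26 and 4.66 times the library mean. At the Ddx4 start (chromosome 13, position 112652310) it was 7.67 and 7.57. Both libraries of Ddx4 lay above both of Dazl, and both genes ranked high among protein-coding genes, at percentiles 88.0 and 92.7.

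Mael and Mov10l1 act in the piRNA pathway, which silences transposons in germ cells; Mov10l1 is the helicase that hands on piRNA precursors. H3K27me3 at the Mael start (chromosome 1, position 166238744) was 7.02 and 6.0, and at Mov10l1 (chromosome 15, position 88982994) 8.20 and 7.36. The libraries of Mov10l1 overlapped those of Ddx4 and lay above both of Mael.

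Sycp1 forms the transverse filaments of the synaptonemal complex, which joins paired chromosomes in meiosis, and Sycp3 is part of its lateral elements. Sycp1 (chromosome 3, position 102936100) had the highest level of the 9 in the 1 kb window, 10.9 in each library (percentile 97.2). Sycp3 (chromosome 10, position 88459587) had 3.18 and 2.32 (percentile 76.9). These partners in one structure lay near opposite ends of the order.

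Brdt is the testis bromodomain protein, Stk31 a Tudor-domain protein kinase of the testis, and Tex101 a surface protein of male germ cells. H3K27me3 was 4.75 and 4.55 at Brdt (chromosome 5, position 107331194), 1.49 and 2.39 at Stk31 (chromosome 6, position 49395539), and 7.41 and 7.12 at Tex101 (chromosome 7, position 24672050). From high to low the order of the 9 means was Sycp1, Mov10l1, Ddx4, Tex101, Mael, Dazl, Brdt, Sycp3, Stk31. The libraries of 4 neighbouring pairs overlapped: Mov10l1 with Ddx4, Mael with Dazl, Dazl with Brdt, and Sycp3 with Stk31. The values rest on 37 to 295 window reads per gene and library, so the low end is the least precise. With 2.5 kb to each side, Tex101 (6.25) and Mov10l1 (5.89) lay above Sycp1 (5.69).

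**Figure D1:**
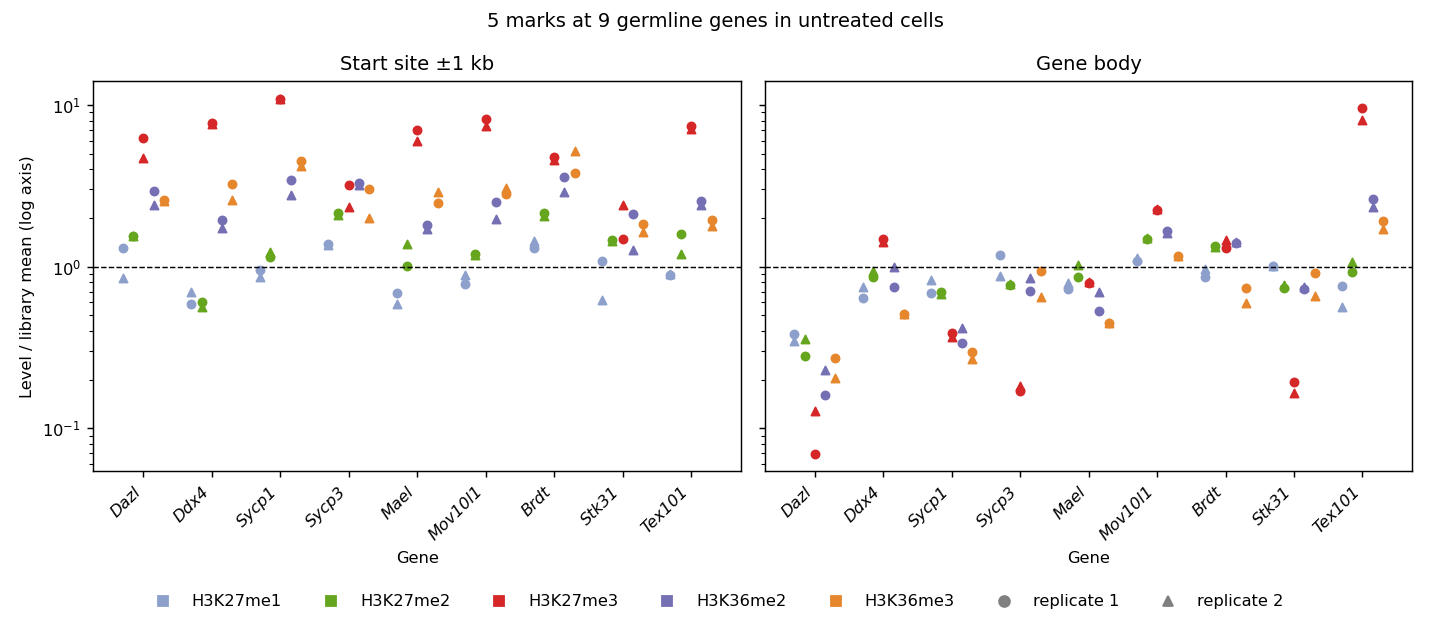
Level of 5 marks at the 9 genes in untreated cells, as a ratio to the library mean on a log axis; each point is 1 library (circle, replicate 1; triangle, replicate 2), with the start-site window on the left and the gene body on the right, and the dashed line is the library mean. H3K27me3 lies above the mean at all 9 starts, from 1.49 in the lower Stk31 library to 10.9 at Sycp1, and spreads from 0.0697 at Dazl to 9.62 at Tex101 in the bodies.

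The DMSO libraries, a separate pair with a spike-in, gave a similar picture before any inhibitor. Sycp1 was again highest, with 13.3 and 12.4 times the library mean, and Brdt (4.79 and 5.26), Sycp3 (3.33 and 2.86) and Stk31 (1.37 and 1.61) were again the lowest in that order. The other 5 genes lay between 6.17 and 8.85, and their order differed from that in untreated cells.

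The level fell from the start into the body at most genes, by widely differing factors. The ratio of the start to the body level was 63.0 ± 37.8 (SD, n = 2) at Dazl, 28.8 ± 1.12 at Sycp1, 15.7 ± 4.33 at Sycp3 and 11.1 ± 4.70 at Stk31, against a median of 1.06 over protein-coding genes. It was 8.15 at Mael, 5.27 at Ddx4, 3.44 at Mov10l1, 3.38 at Brdt and 0.827 at Tex101. The body lies downstream, so this ratio does not show how far the mark reaches upstream. In 7 of 9 genes the highest 1 kb window within 10 kb of the start lay within 1 kb of it, and the exceptions were Mov10l1 and Tex101. For H3K36me2 the same held in 6 of 9 genes, for H3K27me2 in 1 and for H3K27me1 in 0. The share over all genes was not counted.

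In the Dazl body H3K27me3 was 0.0697 and 0.129 times the library mean, the lowest of the 9. The level fell from 6.29 in the window centred on the Dazl start to 1.10 at 1 kb downstream and 0 at 2 kb, while it was 5.90 at 1 kb and 4.19 at 2 kb upstream. The peak that covers the Dazl start was 19.5 kb long (chr17:50292501-50312000) and lay mostly upstream of the gene.

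In the short Tex101 gene, 4.04 kb, the body level was 9.62 and 8.06, both libraries above those of the start. The highest window, 10.5, lay 2 kb downstream, and the level was still 6.22 at 6 kb, beyond the gene end. At Mov10l1 the body level was 2.24 and 2.28, and the highest window, 12.3, lay 6 kb upstream, above the 10.8 at the start. Mov10l1 lies in the longest H3K27me3 peak of the 9 genes, 75.5 kb, and the start of the neighbouring gene Mlc1 is 4.44 kb away.

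Ddx4 had side maxima of 4.13 at 4 kb upstream and 4.14 at 4 kb downstream beside 10.4 at the start. Stk31 had the shortest peak, 2 kb, and Sycp3 one of 2.5 kb. The peaks over the starts of Mael, Sycp1, Tex101, Ddx4 and Brdt were 37000, 14000, 9000, 6500 and 5000 bases long. Most body windows lay in an H3K27me3 peak in 3 of 9 genes, Ddx4, Mov10l1 and Tex101, against 28.5% of protein-coding bodies. The median body level of the 9 was 0.799, against 0.533 over protein-coding genes.

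**Figure D2:**
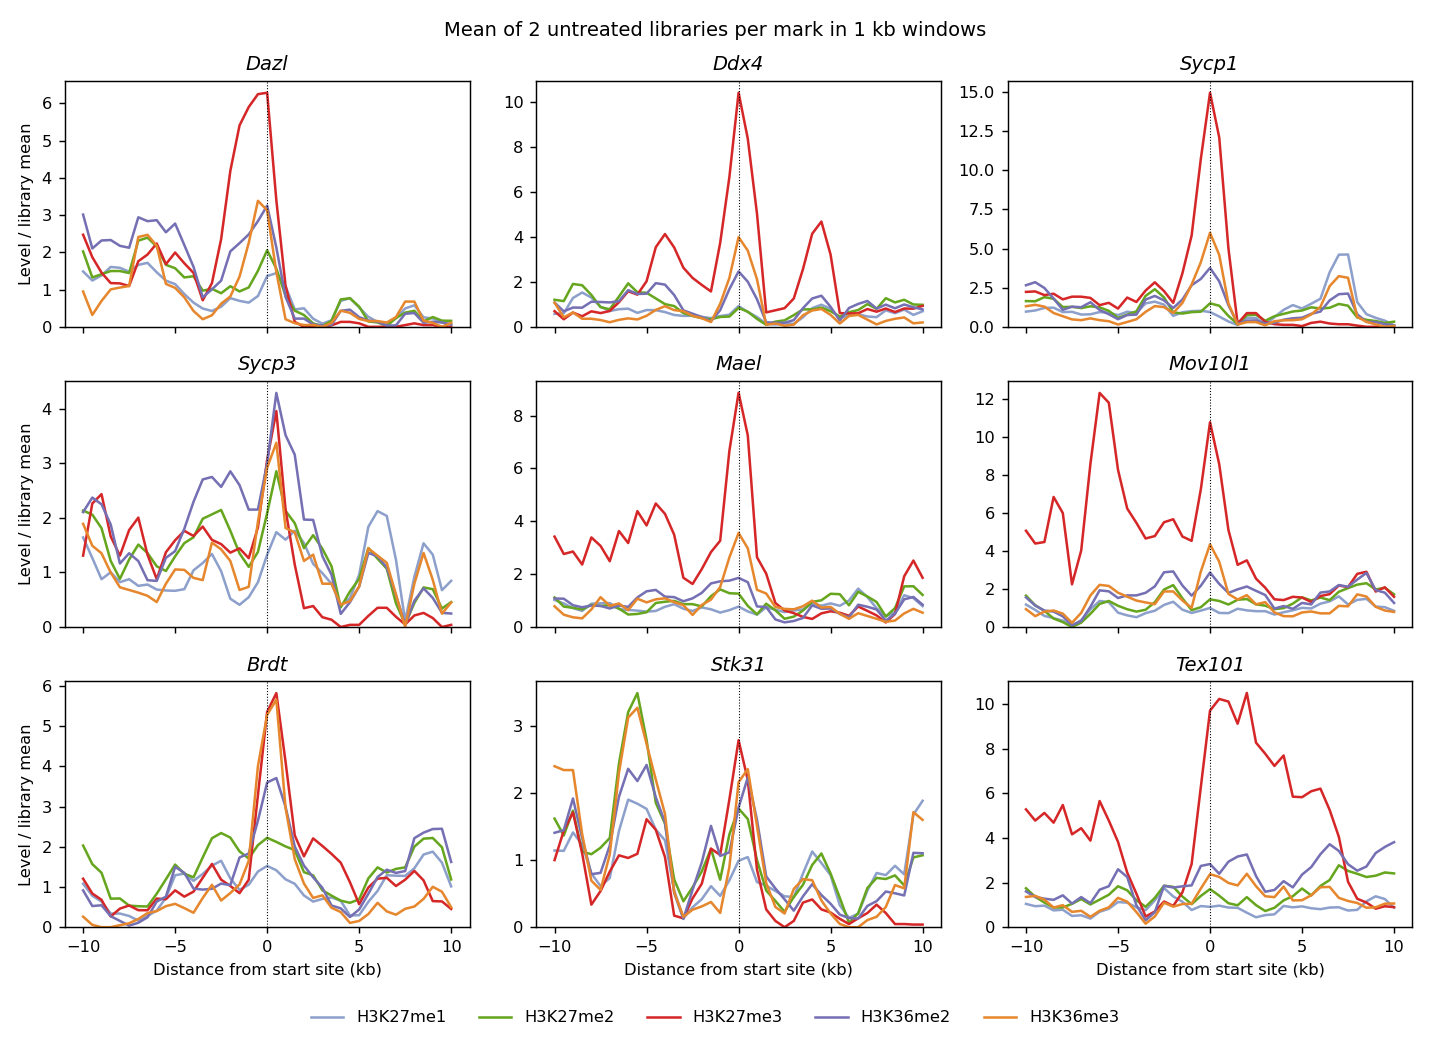
Level of the 5 marks in 1 kb windows every 0.5 kb, from 10 kb before to 10 kb after the start of each gene, as the mean of 2 untreated libraries relative to the library mean (each panel has its own linear axis from 0; downstream is to the right). H3K27me3 reaches 3.96 within 1 kb of the Sycp3 start, and stays high downstream in Tex101 and upstream in Mov10l1. The marks come from different antibodies, so heights of different marks are not ranked against each other.

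H3K36me3 also stood above the library mean at all 9 starts in both libraries, although with a window of 2.5 kb to each side the Stk31 start lay at 0.90. Of protein-coding starts, 54.7% had a mean over 2 libraries above the library mean in the 1 kb window. The median over the 9 starts in that window was 2.67, against 1.08 over protein-coding genes, 2.24 over the housekeeping genes and 1.67 over the Polycomb targets. The highest were Brdt, with 3.76 and 5.2 (percentile 98.0), and Sycp1, with 4.52 and 4.19 (percentile 97.9). The lowest were Tex101, with 1.93 and 1.78, and Stk31, with 1.83 and 1.64. Both libraries of Sycp1 lay above those of the 7 genes other than Brdt.

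In the bodies H3K36me3 was low. The median was 0.667, against 2.08 over protein-coding genes and 7.43 over 9 housekeeping genes, and both libraries lay below the library mean in 7 of 9 genes. The 2 above were Tex101, with 1.91 and 1.70, and Mov10l1, with 1.16 and 1.16. Dazl had 0.272 and 0.204, and Sycp1 0.294 and 0.268. All 9 bodies were under the protein-coding median of 2.08. By the mean of 2 libraries, 70.9% of protein-coding bodies lay above the library mean. The body of Sycp3 overlaps the gene Chpt1 and that of Brdt the non-coding Gm17202, whose signal cannot be told apart from theirs.

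The start therefore exceeded the body for H3K36me3 by a mean factor of 15.5 at Sycp1, 11 at Dazl, 6.90 at Brdt, 5.96 at Mael and 5.76 at Ddx4. The factor was 3.15 at Sycp3, 2.52 at Mov10l1, 2.26 at Stk31 and 1.03 at Tex101, against a protein-coding median of 0.530. In 7 of 9 genes the H3K36me3 maximum within 10 kb was within 1 kb of the start, the exceptions being Stk31 and Tex101. For this mark too the share over all genes was not counted. The reads behind these start values were few, 30 to 96 per gene and library.

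**Figure D3:**
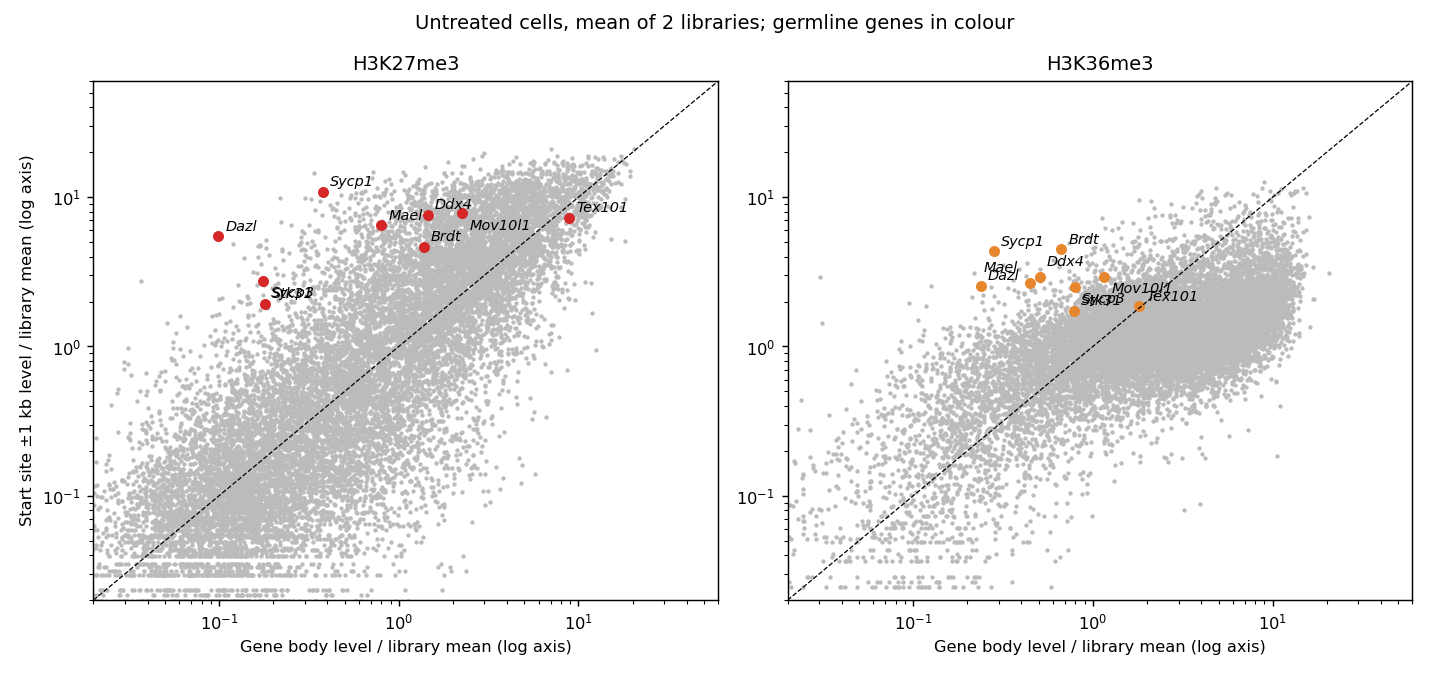
Start-site level against gene-body level in untreated cells for H3K27me3 (left) and H3K36me3 (right), both on log axes as the mean ratio to the library mean over 2 libraries; grey points are protein-coding genes with both values above 0 (15164 and 15138), and the dashed line marks equal levels. For both marks 8 of the germline genes lie clearly above the line and Tex101 lies close to it.

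With a window of 1 kb to each side, H3K36me2 was likewise above the library mean at all 9 starts in both libraries (with 2.5 kb the Ddx4 start lay at 0.94), with a median of 2.46 against 1.27 over protein-coding genes. Of protein-coding starts, 62.1% had a mean over 2 libraries above the library mean. Brdt had 3.59 and 2.89, Sycp3 3.28 and 3.19, and Sycp1 3.41 and 2.79, and the lowest was Stk31 with 2.11 and 1.27. An H3K36me2 peak covered 6 of 9 starts, those of Dazl, Sycp1, Sycp3, Mov10l1, Brdt and Tex101, close to the 57.9% of protein-coding starts. In the bodies the median was 0.778 against 1.34, and 3 of 9 bodies lay mostly in a peak (Mov10l1, Brdt and Tex101) against 51.1%.

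Of the lower states of H3K27, H3K27me2 also stood above the library mean at most of the 9 starts, and H3K27me1 did not. H3K27me2 at the start had a median of 1.39 against 0.907. Both libraries lay above the mean in 8 of 9 genes, and Ddx4 was below it at 0.605 and 0.558. With 2.5 kb to each side, Mael (0.957) and Stk31 (0.966) also lay below. Of protein-coding starts, 45.1% had a mean over 2 libraries above the library mean in the 1 kb window. Sycp3 (2.14 and 2.08) and Brdt (2.14 and 2.06) were highest, and 3 of 9 starts lay in an H3K27me2 peak (Sycp3, Brdt and Tex101) against 39.9%. Of the bodies 3 of 9 lay mostly in an H3K27me2 peak (Mov10l1, Brdt and Tex101) against 47.2%. H3K27me1 had a median of 0.899 against 0.954, both libraries lay above the mean only in Sycp3 and Brdt, and 0 of 9 starts lay in a peak, against 34.0%. By the mean of 2 libraries, 46.5% of protein-coding starts lay above the library mean. None of the 9 bodies lay mostly in an H3K27me1 peak, against 46.8%.

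Base composition moved with several marks. Protein-coding genes with at least 12 CpG had a median start level of 1.27 for H3K36me3, 1.31 for H3K36me2 and 1 for H3K27me1, and those with fewer had 0.813, 1.22 and 0.905. For H3K27me3 the order was the opposite, 0.28 against 0.694, and for H3K27me2 it was 0.826 against 0.984. The part of base composition in the levels at the 9 starts was not tested. Under the ratio to the protein-coding median in place of the library mean, the median germline level at the start stayed above 1 for H3K27me3, H3K36me2 and H3K36me3, as the medians above show.

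Other germ cell genes were compared from lists. Of 13 matched piRNA pathway genes, 9 starts lay in an H3K27me3 peak, with Tdrd1 (10.7 and 10.6) and Henmt1 (10.6 and 10.3) highest and Tdrd12 (0.471 and 0.211) and Exd1 (0.157 and 0.281) lowest. Of 19 matched meiosis genes, 11 did, with Meioc (13.5 and 13.1) and Sycp2 (8.79 and 7.85) highest and Msh5 (0.353 and 0.164) and Msh4 (0.0981 and 0.234) lowest. Beside these counts stand the 34.8% of protein-coding starts in a peak, and the levels within both lists ranged from below to well above the library mean.

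A list of 10 further genes, of which 6 were matched, carried the label germ cell RNA-binding, which was not checked here. Of the 6 matched genes, 4 starts lay in a peak. Cpeb1 (14.6 and 13.7) and Rbm46 (11.3 and 11.5) were highest and Tdrd3 (0.0981 and 0.141) and Nanos3 (0.0588 and 0.0469) lowest. All 12 matched genes of a list of promoters known to bind PRC1.6 lay in a peak, 4 of which belong to the 9 genes. Slc25a31 (11 and 10.3) and Tuba3b (8.81 and 7.85) were its highest and Zcwpw1 (1.92 and 1.80) and Stag3 (1.73 and 1.55) its lowest; Tuba3a and Tuba3b are near-identical copies whose reads could be split between them. Median start levels were 3.80, 1.64, 6.74 and 5.58 for the 4 lists in this order.

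Of the reference lists, 10 of 10 Polycomb targets and 0 of 9 housekeeping genes lay in an H3K27me3 peak. Neurog2 (17.1 and 16.0) and Lmx1b (14.7 and 17.7) were the highest Polycomb targets and Gsc (6.08 and 7.50) and Foxd3 (2.41 and 3.45) the lowest. The housekeeping genes ranged from Sdha (0.0196 and 0) and Pgk1 (0.0196 and 0.0469) to Eef2 (0.137 and 0.164) and Rplp0 (0.392 and 0.234). Both libraries of each of the 9 germline genes were above every housekeeping gene.

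Among cell type markers, 1 of 8 pluripotency starts lay in a peak, that of Esrrb (6.51 and 6.61). Only the most upstream Esrrb start was read, and H3K36me3 in its body was 4.45 and 4.99. H3K27me3 at the start was 0.157 and 0.492 at Nanog, 0.0392 and 0.0469 at Tdgf1, and 0.0588 and 0 at Zfp42. Only 2 primitive endoderm genes were matched, Foxa2 (7.73 and 9.38) and Dab2 (0.451 and 0.727). Of 4 fibroblast genes 3 lay in a peak, with Twist1 (11.1 and 11.9), Prrx1 (7.73 and 8.65), Col1a2 (4.43 and 4.38) and Col3a1 (0.373 and 0.0938).

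Levels of 5 marks at start and body were compared with the median of the 9 over 12776 other protein-coding genes of at least 5 kb. The 3 closest of these were Sox30, Topaz1 and Tktl2. Their Euclidean distances over the 10 log2 ratios were 0.907, 0.983 and 1.22. Mael (0.990) and Ddx4 (1.73) were the closest of the 9 themselves, and Dazl (4.34) and Tex101 (4.16) the farthest, with 3982 and 3518 other genes nearer than them.

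After 7 days of EZH2 inhibitor, H3K27me3 on the spike-in scale fell at the start and in the body of all 9 genes, as it did almost everywhere. The scale is that of the authors, in scaled reads per window, and its factor was recovered from the values. Over all windows the mean went from 48.7 and 35.7 in DMSO to 0.0912 and 0.0668 with the inhibitor. At starts 98.6% of 25003 tested genes were called lower (limma, Benjamini-Hochberg adjusted p under 0.05) and 0 higher, and in bodies 99.7% of 23918. The 9 of 9 genes called in each window is therefore no more than the background. Without a model, both inhibitor libraries were under both DMSO libraries at 98.4% of protein-coding starts and over them at 0.0126%.

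At the Sycp1 start H3K27me3 was 644.8 and 444 in DMSO and 1.21 and 0.718 with the inhibitor. At Ddx4 it was 431 and 253 against 0.787 and 0.866. At Tex101 it was 360 and 273 against 0.0605 and 0.272. The arms did not overlap at any of the 9 starts, and the inhibitor values came from very few reads: in non-overlapping windows 12 and 17 at Sycp1, 8 and 17 at Ddx4, and 0 and 6 at Tex101.

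At the Dazl start the values were 370 and 271 against 0.182 and 0.272, at Mael 367 and 227 against 0.605 and 0.124, and at Mov10l1 300.1 and 285 against 1.03 and 0.124. At Brdt they were 233 and 188 against 0.303 and 0.297, at Sycp3 162 and 102 against 0.484 and 0.198, and at Stk31 66.9 and 57.3 against 0.121 and 0.223. The inhibitor arm rested on 1 and 7 reads at Dazl, 4 and 2 at Mael, 9 and 2 at Mov10l1, 4 and 5 at Brdt, 5 and 3 at Sycp3, and 1 and 4 at Stk31.

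On the log2(value + 1) scale the change was -8.10 (SE 0.32, limma adjusted p = 3.95e-06) at Sycp1 and -8.08 (SE 0.30, limma adjusted p = 3.95e-06) at Tex101. It was -5.75 (SE 0.27, limma adjusted p = 4.43e-06) at Stk31. The size and order of these changes depend on the pseudocount: with 0.1 in place of 1 they were -9.01 at Sycp1, -10.32 at Tex101 and -7.86 at Stk31, and with 10 they were -5.64, -4.99 and -2.82. The median over the 9 was -7.60 against -5.31 over all starts tested. The pseudocount of 1 limits the log2 change where the DMSO level is low, and the DMSO level of the 9 starts was above that of most genes.

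Relative to the library mean, which takes out the global loss, the 9 starts gave no common direction. Both inhibitor libraries lay below both DMSO libraries at 3 of 9 starts, Dazl, Brdt and Tex101, against 28.7% of protein-coding starts, and 0 of 9 lay above, against 35.5%. Tex101 went from 7.39 and 7.65 to 0.664 and 4.08, and Dazl from 7.60 and 7.60 to 1.99 and 4.08. Sycp1 was 13.3 and 12.4 against 13.3 and 10.7, so the arms overlapped.

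Counting error is 1 limit on how far such differences can be read, and the level left at genes low in the mark is another. Relative to the library mean, the median over 9 housekeeping starts was 0.191 in DMSO and 1.88 with the inhibitor. Over protein-coding starts it was 0.666 and 1.81, and over 10 Polycomb targets 19.4 and 45.5. What the remaining reads stand for was not tested. With reads of both libraries pooled, the level at Tex101 was 1653-fold lower (95% interval of counting error, 751 to 4537) and at Dazl 1152-fold lower (577 to 2692), against 547-fold over all windows. Stk31 was 318-fold lower (128 to 1021), Sycp1 531-fold (365 to 801) and Ddx4 362-fold (241 to 569), whose intervals hold the fold over all windows. So do those of Mael (1173-fold, 531 to 3231), Mov10l1 (787.5-fold, 433.5 to 1596), Brdt (650-fold, 335 to 1442) and Sycp3 (436-fold, 214 to 1035). The intervals are exact binomial ones and leave out the spread between libraries.

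In the bodies, Tex101 went from 473 and 315 to 0.403 and 0.0825, and Mov10l1 from 86.3 and 66.4 to 0.156 and 0.100. At the other end, Sycp3 went from 4.52 and 4.45 to 0.0581 and 0.0396, and Stk31 from 6.96 and 6.33 to 0.0779 and 0.0549. The arms overlapped in none of the 9 bodies. Both inhibitor libraries were under both DMSO libraries in 99.7% of protein-coding bodies, so this too is no more than the background. In the Dazl body, 7.26 and 5.12 in DMSO faced 0.0359 and 0 with the inhibitor, which were 2 and 0 reads, a pooled ratio of 735 with a counting interval from 193 to 6240. With the pseudocount of 1 the log2 change ranged from -8.29 at Tex101 to -2.39 at Sycp3, with a median of -4.70 against -5.06 over all bodies.

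Relative to the library mean, body levels moved in both directions. The median over 9 housekeeping bodies was 0.134 in DMSO and 1.48 with the inhibitor. Over protein-coding bodies it was 0.623 and 1.38, and over 10 Polycomb targets 10.0 and 15.2. Stk31 went from 0.143 and 0.177 to 0.855 and 0.822, and Sycp3 from 0.0928 and 0.125 to 0.637 and 0.593. Levels in the inhibitor libraries exceeded each DMSO level at 4 of 9 bodies, Sycp1, Sycp3, Mael and Stk31, against 51.3% of protein-coding bodies. They lay below at 3 of 9, Mov10l1, Brdt and Tex101, against 27.6%. Tex101 went from 9.71 and 8.83 to 4.43 and 1.24, on 5 and 2 reads.

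With all libraries put to a common total in place of the spike-in, 744 starts were called higher and 1467 lower, and 5656 bodies higher and 1496 lower, and the median change over all genes moved from -5.31 to -0.41 at starts and from -5.06 to 0.05 in bodies. On that scale none of the 9 starts was called (limma, Benjamini-Hochberg); in the bodies the Sycp3 change became 2.28 and the Stk31 change 2.24, both called higher (limma adjusted p = 0.016 and 0.0158). That is 2 of 9 bodies, on a scale where 23.6% of all bodies tested were called higher. The Sycp3 body held 4 and 13 reads in DMSO and 2 and 3 with the inhibitor, and the Stk31 body 81 and 130 against 23 and 37.

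**Figure D4:**
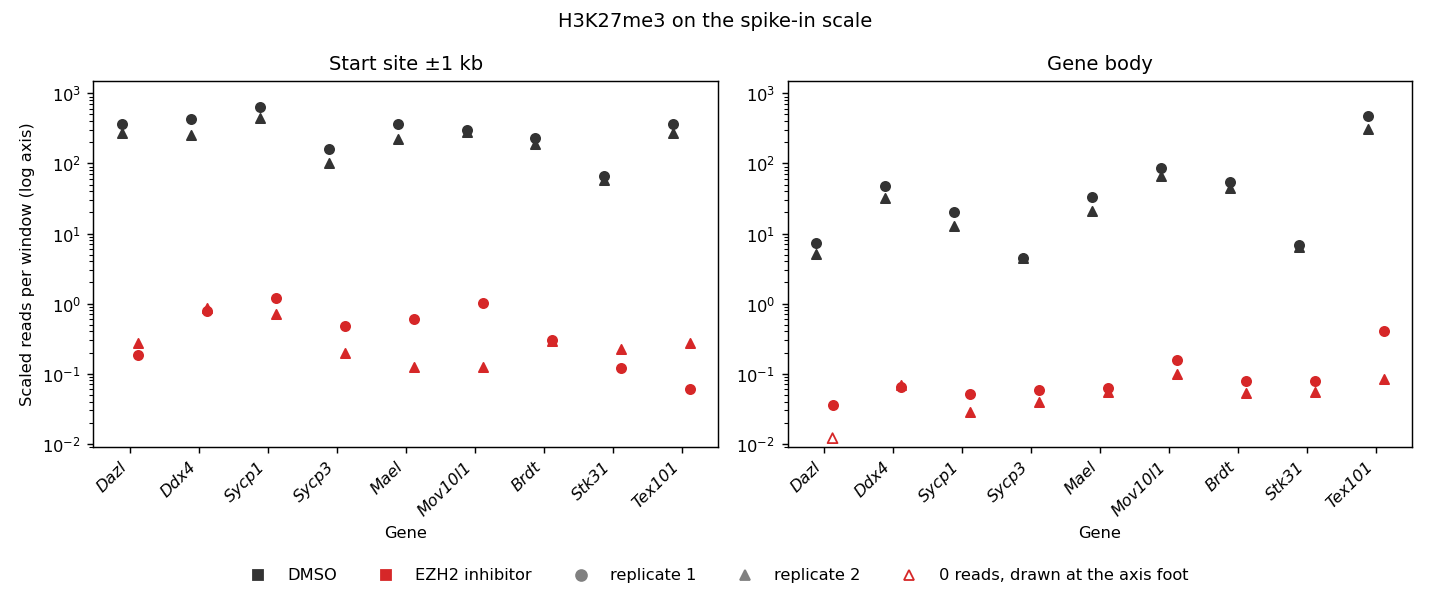
H3K27me3 in scaled reads per window on a log axis in DMSO (dark) and EZH2 inhibitor (red) libraries at the start (left) and in the body (right) of each gene; each point is 1 library, and an open symbol at the foot of the axis is a library with 0 reads. The inhibitor libraries lie below the DMSO libraries at every gene, at 0.0605 to 1.21 against 57.3 to 644.8 at the starts.

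H3K36me2 at the 9 genes did not change beyond the spread between libraries. Of the 9 genes, 0 were called at the start and 0 in the body (limma, Benjamini-Hochberg adjusted p under 0.05). The background was 0.392% of 26256 starts (98 higher, 0.373%, and 5 lower, 0.019%) and 0.0654% of 24477 bodies (13 higher, 0.0531%, and 3 lower, 0.0123%). At an unadjusted p under 0.05, 0 of the 9 genes passed in either window, and 752 starts and 429 bodies did. The fit gave the same SE to all 9 starts (0.584) and to all 9 bodies (0.523). These p-values and intervals therefore rest on a spread pooled over genes and not on that of each gene.

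The arms overlapped at all 9 starts and in all 9 bodies. Over protein-coding genes, the inhibitor arm lay wholly above the DMSO arm at 7.33% of starts and 6.96% of bodies and wholly below it at 1.66% and 1.08%. At the Mael start, which had the largest change of the 9, H3K36me2 was 459.6 and 281 scaled reads per window in DMSO and 659.5 and 361.5 with the inhibitor, a log2 change of 0.44 (SE 0.58, 95% interval -0.70 to 1.59). At the Ddx4 start it was 503 and 419.6 against 464 and 418, a log2 change of -0.06 (95% interval -1.20 to 1.09). The intervals hold a log2 change of 1 at every one of the 9 starts, and of -1 at all but Sycp1 and Mael in this fit, which has no replicate block.

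At the Sycp1 start the values were 775 and 497 against 995 and 494, and at Sycp3 561 and 531 against 738 and 459. At Brdt they were 1119 and 508.5 against 1048 and 604, at Dazl 821 and 458.5 against 759.5 and 523, and at Tex101 740 and 514 against 843 and 480.2. At Mov10l1 they were 727 and 558.5 against 752 and 518, and at Stk31 492.5 and 367 against 559.5 and 339.9. Replicate 1 was higher than replicate 2 in each arm at all 9 starts.

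In the bodies the log2 changes ran from -0.01 at Stk31 to 0.42 at Dazl (95% interval -0.60 to 1.44), with a median of 0.29 against 0.10 over all bodies. The Dazl body held 37.4 and 20.6 in DMSO and 53.3 and 26.4 with the inhibitor, and the Tex101 body, the highest, 806.5 and 445 against 982.5 and 572. Against the library of the same number, the inhibitor library was higher in 9 of 9 bodies and 6 of 9 starts for replicate 1, and in 7 of 9 bodies and 3 of 9 starts for replicate 2. Over all protein-coding genes with at least 10 reads over the 4 libraries, these shares were 82.9% of bodies and 64.1% of starts for replicate 1, and 48.3% and 47.5% for replicate 2. The mean over all windows was also higher with the inhibitor for both numbers, 404 and 227 against 324 and 213.

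Relative to the library mean, H3K36me2 at the start lay higher in both inhibitor libraries than in both DMSO libraries at 1 of 9 genes, Mael (1.63 and 1.6 against 1.42 and 1.32), beside 11.6% of protein-coding starts. It lay lower at 2 of 9, Stk31 and Tex101, beside 40.0%. In the bodies 2 of 9 were higher, Dazl and Mael, beside 16.0%, and 2 of 9 lower, Mov10l1 and Stk31, beside 36%.

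**Figure D5:**
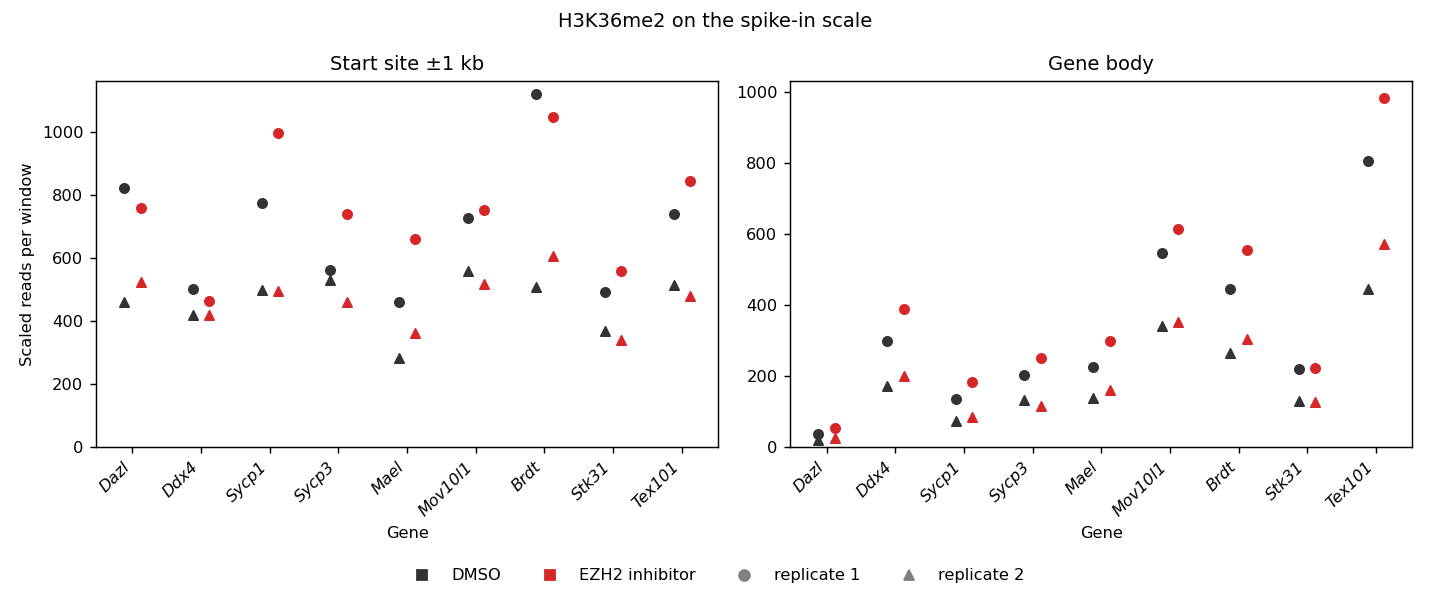
H3K36me2 in scaled reads per window on linear axes from 0 in DMSO (dark) and EZH2 inhibitor (red) libraries at the start (left) and in the body (right) of each gene; each point is 1 library (circle, replicate 1; triangle, replicate 2). The arms overlap at every gene, and replicate 1 lies above replicate 2 in both arms.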

How the data were processed

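The deposited tracks hold log2 values per 1 kb window every 500 bp, made by the authors from aligned reads. Trim Galore 0.4.2, Bowtie2 2.2.6.2, SICER and the builds mm10 and dm3 are named in the submitters' processing notes. Each value equals log2(1 + reads × factor), with whole reads in 100% of windows at a tolerance of 0.02; the factor scales to reads per 1000000 mapped reads (RPM) in untreated libraries and was taken as the authors' spike-in factor in the others, whose derivation is not given in the sources used here. The deposited peak lists carry a score by the authors on an unstated scale, 1 replicated list per mark by its name, taken as that of the untreated libraries; how replicates were joined is not given in the sources used here.

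Values were returned to reads, 19 autosomes and X were kept, and the most upstream start in the RefSeq promoter table was used. A start lay in a peak with at least 1 of its 4 windows, a body with at least 50% of its windows. Arms were compared with limma 3.58.1 (R 4.3.3) on log2(mean scaled reads per window + 1), without a block, for genes with at least 10 window reads over 4 libraries. The fit was tried on simulated reads with both arms at DMSO depth, put to a common total. That trial held no global loss and no spike-in scale, so it does not test the fit under the conditions of the comparisons above. A read can be counted in more than 1 window, and intervals cover counting error only.

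The 9 genes and all lists were chosen with earlier results of these data known. Named from each list were the 2 genes highest and the 2 lowest in H3K27me3 at the start. Listed genes without an entry in the RefSeq start table were not analysed here.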

Additional observations from a re-analysis of the deposited data

How the results depend on the processing

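The untreated levels have 2 libraries each, so leaving one out moves a mean by less than 1 SD by construction and is no check of them. The other settings did move them by over 1 SD: 37 of 45 start levels with a window of 2.5 kb to each side, 28 of 45 body levels with the median over windows, 19 of 45 with bodies from the start, 24 of 90 levels with non-overlapping windows and 78 of 90 relative to the protein-coding median. With the wider window H3K27me3 at the start fell to 5.69 times the library mean at Sycp1 (from 10.9), 3.98 at Ddx4 (from 7.62) and 1.10 at Stk31 (from 1.94), so that Tex101, at 6.25, was the highest, and all 9 stayed above 1. H3K36me3 at the Stk31 start then lay at 0.90, below the library mean, and relative to the protein-coding median the H3K36me3 bodies of Mov10l1 and Tex101 lay at 0.56 and 0.87. The fall of H3K27me3 at the 9 genes kept its direction and its call under every alternative except library totals; with reads required in all 4 libraries the Dazl body was not tested. On library totals the calls went from 24647 to 2211 starts and from 23844 to 7152 bodies; requiring reads in all 4 libraries left 15902 starts, since fewer genes were tested. On library totals the log2 change became 0.42 at Ddx4, 0.36 at Sycp3 and 0.50 at Stk31 at starts, and 0.34 at Sycp1, 2.28 at Sycp3, 0.23 at Mael and 2.24 at Stk31 in bodies, because that scale removes the global loss.

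The number of genes called for H3K36me2 depended on the setting, and the cause was not tested. The 103 starts became 2 on library totals, 175 with a pseudocount of 0.1, 0 with a pseudocount of 10, 0 with no filter, 5 with reads in all 4 libraries, 0 with limma-voom, and 11 with a window of 2.5 kb to each side. The 16 bodies became 0 on library totals, 54 with a pseudocount of 0.1, 0 with a pseudocount of 10, 0 with no filter, 3 with reads in all 4 libraries, 3 with limma-voom, and 62 with bodies from the start. Leaving out 1 library gave 24 to 178 starts and 7 to 63 bodies. None of the 9 genes was called for H3K36me2 in any of these.

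The sign of the small H3K36me2 changes was not stable. Library totals gave -0.16 at Dazl, -0.029 at Sycp1, -0.11 at Sycp3, -0.13 at Brdt, -0.17 at Stk31 and -0.16 at Tex101 at starts, and -0.14 at Sycp3 and -0.10 at Mov10l1 in bodies. The wider window gave -0.006 at Dazl, 0.26 at Ddx4 and 0.038 at Mov10l1. Non-overlapping windows gave 0.033 at Mov10l1 at the start and 0.009 at Stk31 in the body. Leaving out 1 library gave -0.38 to 0.46 at Dazl, -0.19 to 0.07 at Ddx4, -0.33 to 0.68 at Sycp1, -0.25 to 0.43 at Sycp3, -0.30 to 0.24 at Mov10l1, -0.49 to 0.65 at Brdt, -0.32 to 0.40 at Stk31 and -0.36 to 0.45 at Tex101 at starts, and -0.073 to 0.91 at Dazl, -0.19 to 0.77 at Ddx4, -0.24 to 0.88 at Sycp1, -0.49 to 0.61 at Sycp3, -0.14 to 0.76 at Mael, -0.30 to 0.50 at Mov10l1, -0.18 to 0.69 at Brdt, -0.42 to 0.40 at Stk31 and -0.10 to 0.75 at Tex101 in bodies; the lone library of an arm was assumed to vary like the others.

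The replicate numbers are shared between arms, but 2 pairs cannot settle whether the libraries are paired. Deviations of same-numbered libraries correlated across genes with r = 0.025 (starts) and 0.0868 (bodies) for H3K27me3, and 0.133 and 0.527 for H3K36me2. These correlations leave out the mean offset. For H3K36me2, replicate 1 exceeded replicate 2 by a mean log2 of 0.615 in DMSO and 0.778 with the inhibitor at starts. In bodies it did so by 0.547 and 0.745. For H3K27me3 the offsets were 0.435 and 0.0435 at starts and 0.415 and 0.0588 in bodies. The fit without a block counts such an offset as spread. With the replicate number as a block, 24956 starts and 23900 bodies were called for H3K27me3, and 0 starts and 2953 bodies for H3K36me2, of which 2898 were higher, with none of the 9 genes among them. The block left the H3K36me2 changes at starts as they were and narrowed their intervals, to -0.44 to 0.51 at Dazl, -0.51 to 0.39 at Ddx4 and -0.01 to 0.90 at Mael, and at none of the 9 starts did they then hold a log2 change of 1 or -1. Depth limits the inhibitor libraries of H3K27me3, where 0 to 17 reads lay at a start.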
